A study of Homo sapiens with 2 samples.

Results

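Imprinted genes are transcribed mainly from the copy inherited from a single parent. The 35 genes described here are human genes known for such expression. They lie in 15 clusters, and each was found by its symbol in both expression tables, where it stood on 1 row. The tables held 23452 symbols with a value in both libraries. RNA was sequenced from G401, an established human line of kidney rhabdoid tumor origin. The HOXB13-targeted cells are G401 cells labelled with the guide sg1 against the homeobox gene HOXB13, in a CRISPR knockout design, and the control cells are G401 cells labelled with a control guide. Both were grown in the same medium with serum, and the sources used here do not say whether the edited cells were a pool or a clone.

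Only 1 library was made per group, which leaves every difference without replicates and without a p-value. Levels are FPKM, which divides the fragments of a gene by its transcript length and by library size, and a value listed at 0.001 was read as 0. HOXB13 itself had 4.50 FPKM in HOXB13-targeted cells and 14.6 FPKM in control cells. SMARCB1, the chromatin gene whose loss defines most rhabdoid tumors, had 0.0577 FPKM in HOXB13-targeted cells and 0.113 FPKM in control cells. Steps between low values put the depth at about 23.6 M reads in HOXB13-targeted cells and 24.1 M in control cells. Read numbers given below as approximate use those depths and the shortest annotated transcript with a RefSeq match, where there is one. Members with 1 exon use the width of their locus. A longer transcript would give more reads and narrower intervals, and the intervals cover counting error only.

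Parental imprints are methylation marks laid down in the egg or the sperm and kept through later cell divisions. They act over clusters, so that one mark can keep several neighbouring genes silent on a chromosome copy, often through a long noncoding RNA or a CTCF-bound insulator. Several of these genes restrain or promote fetal growth, and the kidney cancer of childhood known as Wilms tumor often carries altered imprints on the short arm of chromosome 11. The tables give 1 value per gene and do not separate the parental copies, so they show the level of each gene and not its imprint.

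Start regions of 5 members are shown because each lies at or near a mark that differs between parents in normal cells, while their levels here ran from listed at 0 to 48.2 FPKM. Each window holds 250 bases before and 50 after a RefSeq transcript start on GRCh38.p14, 5′ to 3′ on the gene's strand, and the capitals mark CpG, the pair of letters that is methylated. Of the members, 23 matched a window in that table. PEG10, SGCE, DLK1, PEG3, KCNQ1OT1, CDKN1C, PHLDA2 and SLC22A18 were among those without one, so their start regions could not be shown. Where a gene had several, the window with the most CpG was taken. Windows were not matched to the hg19 loci of the measured genes. The window shown, as for H19, need not be the start of the transcript behind the level. The windows are chr15:24954737-24955036 on the plus strand for the start that SNURF shares with SNRPN, chr4:88697780-88698079 on the minus strand for NAP1L5, chr7:130491835-130492134 on the plus strand for MEST, chr1:68050578-68050877 on the minus strand for DIRAS3, and chr11:2001217-2001516 on the minus strand for H19.
SNURF and SNRPN shared start: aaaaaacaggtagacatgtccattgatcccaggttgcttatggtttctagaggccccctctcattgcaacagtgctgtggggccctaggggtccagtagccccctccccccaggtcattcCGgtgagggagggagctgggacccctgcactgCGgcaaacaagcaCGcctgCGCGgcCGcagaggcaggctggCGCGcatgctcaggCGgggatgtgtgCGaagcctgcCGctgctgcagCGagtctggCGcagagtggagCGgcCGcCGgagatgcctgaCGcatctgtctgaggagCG
NAP1L5: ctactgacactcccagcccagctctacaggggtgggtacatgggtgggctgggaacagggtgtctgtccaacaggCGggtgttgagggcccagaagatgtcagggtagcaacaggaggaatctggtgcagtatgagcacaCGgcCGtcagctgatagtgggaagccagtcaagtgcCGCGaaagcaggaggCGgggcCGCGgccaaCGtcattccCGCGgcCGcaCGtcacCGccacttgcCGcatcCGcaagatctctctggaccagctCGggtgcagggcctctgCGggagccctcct
MEST: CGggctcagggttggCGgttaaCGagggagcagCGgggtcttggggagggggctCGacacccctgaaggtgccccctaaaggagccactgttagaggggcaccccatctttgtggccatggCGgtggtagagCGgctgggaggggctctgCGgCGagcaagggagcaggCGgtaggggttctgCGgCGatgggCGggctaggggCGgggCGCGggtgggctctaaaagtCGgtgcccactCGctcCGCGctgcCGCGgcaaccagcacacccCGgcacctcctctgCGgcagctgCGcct
DIRAS3: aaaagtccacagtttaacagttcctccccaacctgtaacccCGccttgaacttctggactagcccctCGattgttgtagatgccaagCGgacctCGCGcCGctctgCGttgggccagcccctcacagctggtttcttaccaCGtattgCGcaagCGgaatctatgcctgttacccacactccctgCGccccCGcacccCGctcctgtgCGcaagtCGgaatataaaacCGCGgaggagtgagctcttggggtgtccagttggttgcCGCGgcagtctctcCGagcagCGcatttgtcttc
H19: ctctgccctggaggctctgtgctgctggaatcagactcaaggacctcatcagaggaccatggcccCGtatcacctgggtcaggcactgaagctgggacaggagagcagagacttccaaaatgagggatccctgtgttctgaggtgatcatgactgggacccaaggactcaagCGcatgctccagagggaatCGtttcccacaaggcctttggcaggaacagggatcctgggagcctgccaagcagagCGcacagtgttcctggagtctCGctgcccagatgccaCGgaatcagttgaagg
These windows held 18 CpG at the SNURF and SNRPN start, 18 at NAP1L5, 25 at MEST, 21 at DIRAS3 and 6 at H19, against a median of 16 over 27305 genes when the window with the most CpG is likewise taken for each. CpG number did not order the levels: the windows of SNURF and NAP1L5 had the same number, yet SNURF stood at 46.1 FPKM in HOXB13-targeted cells and 48.2 FPKM in control cells, and NAP1L5 at 5.42 and 5.55 FPKM in the same order of libraries. GRB10, whose window held 49 CpG, was listed at 0 in HOXB13-targeted cells and at 0.0286 FPKM in control cells. The letters TTTATNG, a core of sites that HOXB13 binds, were searched on both strands. They stood in the window of 1 of the 23 matched members, GNAS. Among all genes, 9.63% had these letters in the window chosen in the same way. Such a match is a description and not a site.

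The members covered a wide range of levels. In both libraries 8 members reached at least 10 FPKM, and GNAS was the highest, at 485 FPKM in HOXB13-targeted cells and 576 FPKM in control cells. A further 11 lay between 1 and 10 FPKM in the library where they were higher. The other 16 stayed under 1 FPKM in both. Of these, 2 were listed at 0 in both libraries, 4 only in HOXB13-targeted cells and 3 only in control cells. The last gene inside the 1 FPKM limit was L3MBTL1, at 1.53 FPKM in its higher library, and the first outside was TP73, at 0.889 FPKM.

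**Figure D1:**
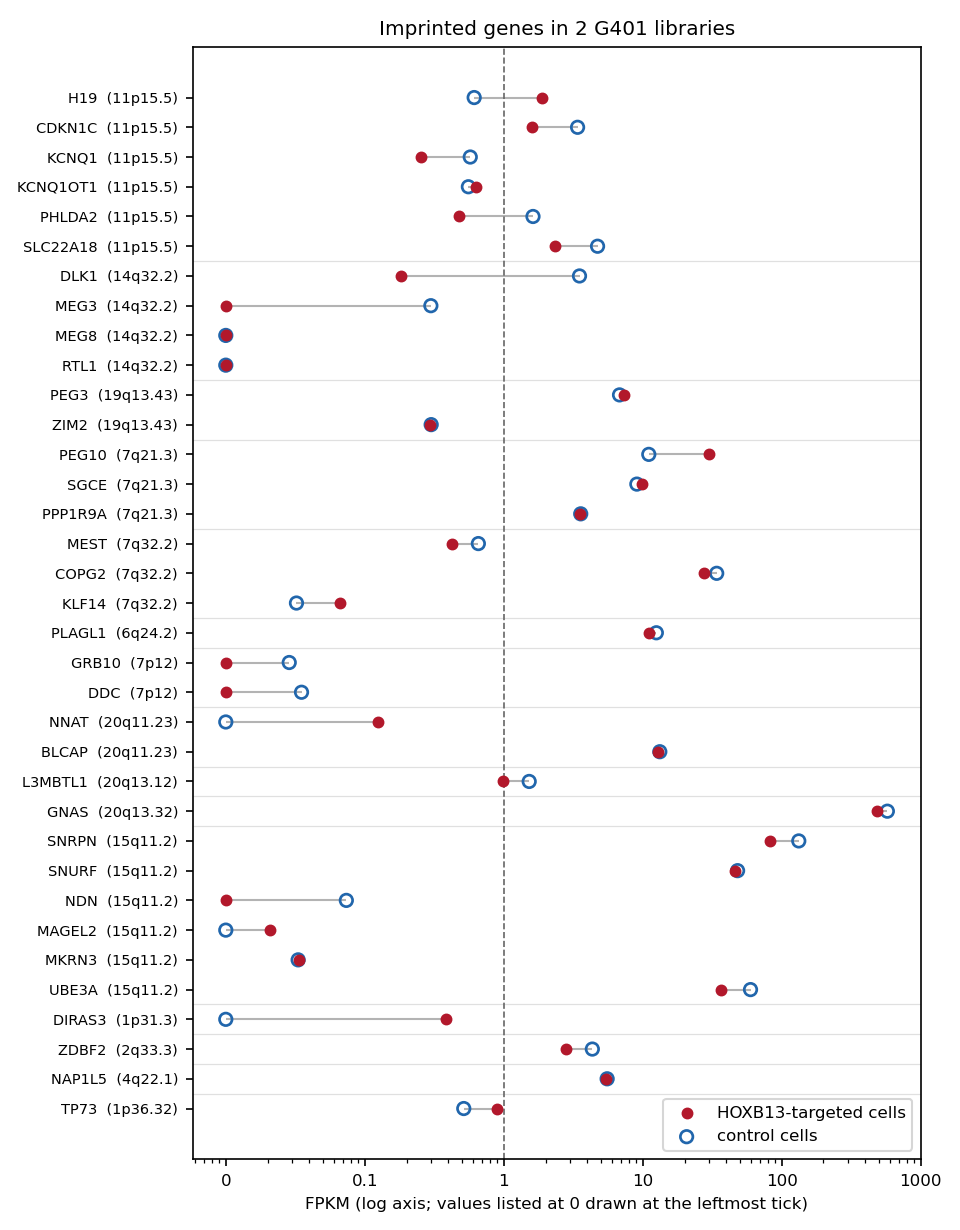
Level of each of the 35 imprinted genes, in FPKM on a log axis, grouped by cluster. Filled red points are HOXB13-targeted cells and open blue points control cells, 1 library each, and values listed at 0 sit at the leftmost tick. DLK1 stands at 0.184 against 3.51 FPKM, across the dashed line at 1 FPKM, and PEG10 at 30.25 against 11.1 FPKM.

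A ratio was taken for the 19 members at 1 FPKM or more in either library, as the log2 of FPKM + 1 in HOXB13-targeted cells divided by FPKM + 1 in control cells. At 2-fold or more, PEG10 was the 1 member higher in HOXB13-targeted cells, and 4.25% of all 11970 genes taken in the same way were. DLK1 was the 1 member 2-fold lower, and 4.51% of all genes were. Together they make 10.5% of the 19, near the 8.76% of all genes. The median log2 ratio of the 19 was −0.25, beside −0.05 for all genes. Of the 19, 15 were below 0 and 4 above, beside 6514 below and 5456 above among the 11970 genes. When the upper quartiles of the libraries are made equal, 11 members were below 0 and 8 above. Adding 1 FPKM shrinks the ratio of low genes. With no pseudocount 4 of the 19 were 2-fold lower and 2 were 2-fold higher in HOXB13-targeted cells, with a background of 7.32% lower and 6.18% higher. All but PEG10 of these came from the 8 members between 1 and 5 FPKM, a range chosen after the values were seen, where 15.0% of all genes were 2-fold lower and 10.1% 2-fold higher without a pseudocount. Of the 19, H19 reached 1 FPKM in HOXB13-targeted cells alone, and DLK1, PHLDA2 and L3MBTL1, or 3 members, in control cells alone, so the filter itself favours a difference in these and the counts over the 19 are a description. These are bulk libraries, in which fewer cells with a transcript and less of it per cell cannot be told apart.

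**Figure D2:**
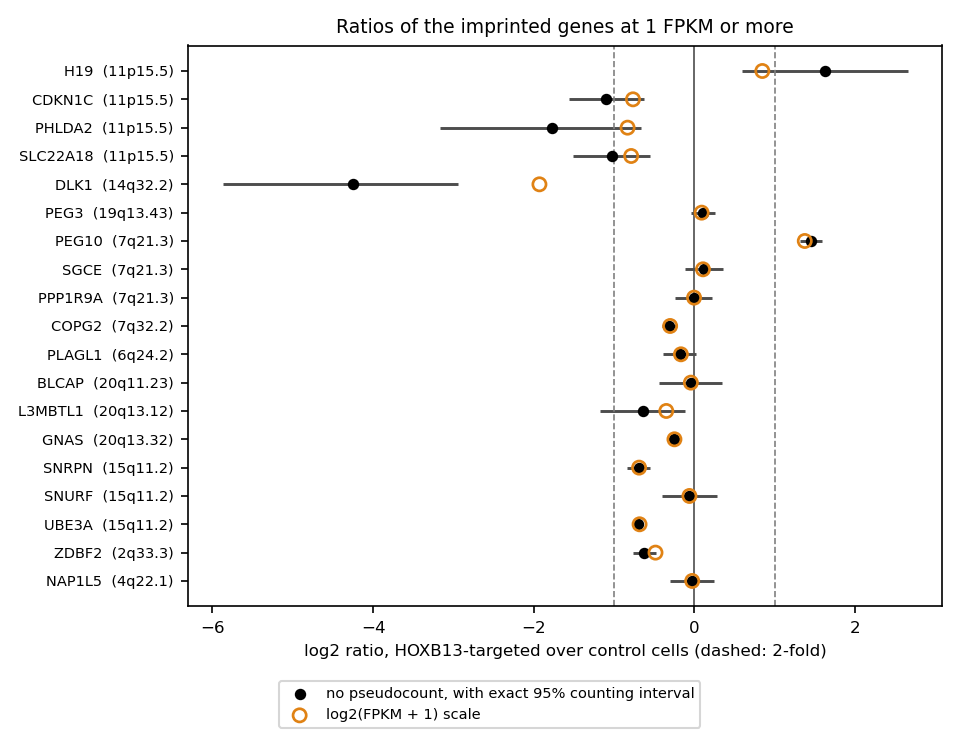
Log2 ratio of HOXB13-targeted over control cells for the 19 imprinted genes at 1 FPKM or more. Black points are ratios without a pseudocount, with exact 95% counting intervals, open orange circles are on the log2(FPKM + 1) scale, and dashed lines mark 2-fold. PEG10 (1.37) and DLK1 (−1.93) lie past 2-fold on both scales, while H19, CDKN1C, PHLDA2 and SLC22A18 do so only without the pseudocount.

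The cluster at 11p15.5 joins a pair of imprinted domains. CDKN1C, SLC22A18 and PHLDA2 had lower values in HOXB13-targeted cells, with log2(FPKM + 1) ratios of −0.77, −0.79 and −0.83 that were short of 2-fold and ratios past 2-fold without the pseudocount. In the domain governed by the noncoding RNA KCNQ1OT1, which is made from the paternal copy, the other members are expressed from the maternal copy. CDKN1C encodes p57, an inhibitor of cyclin-dependent kinases. The hg19 locus of CDKN1C is chromosome 11, 2904448 to 2906995. It had 1.59 FPKM in HOXB13-targeted cells and 3.40 FPKM in control cells. That is 46.7% of the control level, from about 59 and 128 reads (exact 95% interval 34.0 to 64.5%).

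PHLDA2, which restrains placental growth in mice, had 0.474 FPKM in HOXB13-targeted cells and 1.62 FPKM in control cells. It stood at 29.2% of the control level, from about 8 and 29 reads (interval 11.1 to 63.1%). SLC22A18, a membrane transporter gene, had 2.32 FPKM in HOXB13-targeted cells and 4.73 FPKM in control cells, or 49.0% (interval 35.2 to 68.4%). These 3 genes are close together: 13955 bases separate CDKN1C from SLC22A18, and 3026 bases separate SLC22A18 from PHLDA2.

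KCNQ1, which encodes a potassium channel and hosts the noncoding RNA in its introns, had 0.255 FPKM in HOXB13-targeted cells and 0.574 FPKM in control cells, and so was too low for the ratio count, with a ratio of 44.5% (interval 20.9 to 92.6%). KCNQ1OT1 did not share the direction. The level of this RNA was 0.637 FPKM in HOXB13-targeted cells and 0.557 FPKM in control cells. Because the table gives it a locus of 91671 bases, those low levels stand for about 1372 and 1225 reads, and the ratio was 114% (interval 106 to 124%). It lies wholly within KCNQ1, and the sources used here do not give the strand mode of the counting, so intronic KCNQ1 reads and KCNQ1OT1 reads cannot be told apart. The 4 maternally expressed members of this domain stood at 29.2 to 49.0% of the control level, beside a noncoding RNA at 114%. Of these, KCNQ1 was under 1 FPKM in both libraries. NAP1L4 and OSBPL5, outside the members but also reported as imprinted, were not lower in HOXB13-targeted cells and are given below.

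H19, a noncoding RNA made from the maternal copy of the other domain, went the opposite way. It had 1.90 FPKM in HOXB13-targeted cells and 0.613 FPKM in control cells. On the log2(FPKM + 1) scale this was 0.85, short of 2-fold, and without a pseudocount H19 was 3.10-fold higher, from about 35 and 12 reads (interval 151 to 630% of control). With the longest H19 transcript the numbers would be about 96 and 32 reads. Of the 9 other genes at 1 FPKM or more within 500 kb of the cluster, 1 was 2-fold lower and none 2-fold higher, and their median log2 ratio was 0.12. The lower one was CARS, a tRNA synthetase gene 71.5 kb past PHLDA2, at 22.6 FPKM in HOXB13-targeted cells and 72.8 FPKM in control cells. Between PHLDA2 and CARS lies NAP1L4, a histone chaperone gene also reported as imprinted. It had 73.9 FPKM in HOXB13-targeted cells and 68.0 FPKM in control cells. OSBPL5, likewise reported as imprinted and 157.7 kb past the cluster, had 2.59 FPKM in HOXB13-targeted cells and 1.93 FPKM in control cells. NAP1L4 and OSBPL5 were named after their values were seen.

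At 14q32.2 only DLK1 reached 1 FPKM in either library, so the difference at this cluster rests mainly on DLK1. DLK1, a paternally expressed membrane protein related to the ligands of the Notch receptor, keeps progenitor cells from differentiating. It lies on chromosome 14 from 101193202 to 101201467 in hg19. DLK1 had 0.184 FPKM in HOXB13-targeted cells and 3.51 FPKM in control cells, a log2(FPKM + 1) ratio of −1.93. Of all 11970 genes, 0.785% had a ratio as low. That share is a description only, because DLK1 passed the 1 FPKM limit through control cells alone. Without a pseudocount DLK1 was at 5.24% of the control level, from about 5 and 95 reads (interval 1.71 to 13.0%). With the longest DLK1 transcript the numbers would be about 20 and 381 reads. MEG3, the maternally expressed noncoding RNA that starts 91.0 kb past DLK1, was listed at 0 in HOXB13-targeted cells and had 0.299 FPKM in control cells. That control value stands for about 9 reads with the shortest MEG3 transcript and about 92 with the longest, while a count of 0 allows up to 0.104 FPKM in HOXB13-targeted cells. RTL1, a retrotransposon-derived gene expressed from the paternal copy, was listed at 0 in both libraries, as was the noncoding RNA MEG8. For RTL1 a count of 0 allows up to 0.0319 FPKM in HOXB13-targeted cells and 0.0313 FPKM in control cells. For MEG8, with its shortest transcript, the limits were 0.433 FPKM in HOXB13-targeted cells and 0.424 FPKM in control cells. Both are above the MEG3 level in control cells. DLK1, expressed from the paternal copy, and MEG3, expressed from the maternal copy, thus both had lower values in HOXB13-targeted cells. Among the 4 tested neighbours within 500 kb, 1 was 2-fold lower. This was WARS, a tRNA synthetase gene 350.5 kb before DLK1, with 45.5 FPKM in HOXB13-targeted cells and 261 FPKM in control cells.

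At 7q21.3 a pair of head-to-head genes had different ratios. PEG10, a retrotransposon-derived gene needed for the placenta in mice, and SGCE, which encodes a sarcoglycan of the cell membrane, are both expressed from the paternal copy, and 115 bases separate their loci. PEG10 lies on chromosome 7 from 94285637 to 94299006 in hg19. It had 30.25 FPKM in HOXB13-targeted cells and 11.1 FPKM in control cells, a log2(FPKM + 1) ratio of 1.37, and 2.14% of all genes had a ratio as high. Without a pseudocount PEG10 was at 273% of the control level (interval 249 to 300%), from about 1698 and 634 reads. SGCE had 9.85 FPKM in HOXB13-targeted cells and 9.08 FPKM in control cells, or 108% (interval 92.1 to 128%). The interval of SGCE lies below that of PEG10, so at this depth the difference between the pair is larger than counting error in these 2 libraries. PPP1R9A, a neuronal actin-binding scaffold gene further along, had 3.57 FPKM in HOXB13-targeted cells and 3.58 FPKM in control cells. Of 3 tested neighbours, PON2, a lactonase gene 108.4 kb past the cluster, was 2-fold higher, with 22.9 FPKM in HOXB13-targeted cells and 9.93 FPKM in control cells.

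**Figure D3:**
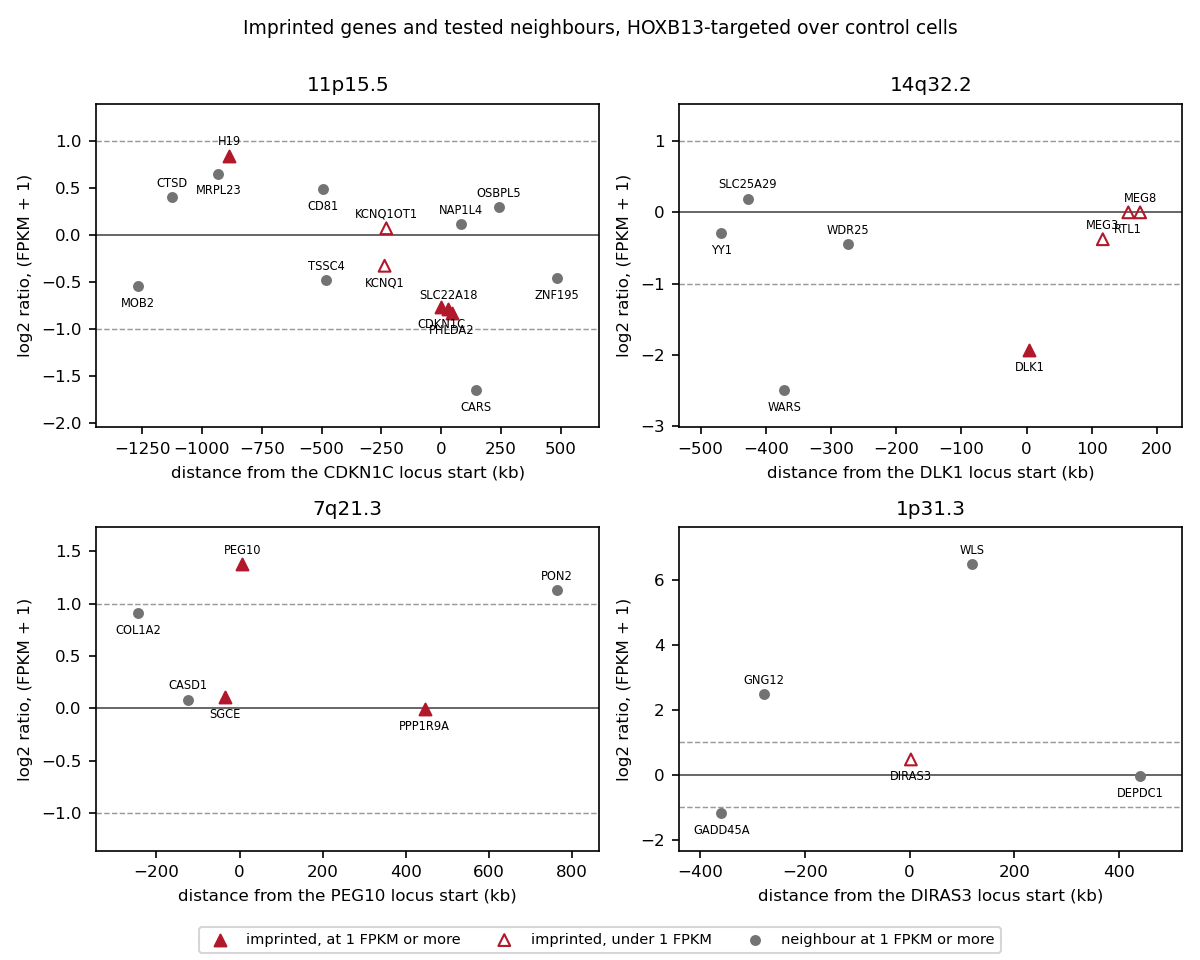
Log2(FPKM + 1) ratio of HOXB13-targeted over control cells against distance in kb from a member's locus start, for 4 clusters. Red triangles are imprinted genes, filled at 1 FPKM or more and open below it, grey points are neighbours within 500 kb at 1 FPKM or more, and dashed lines mark 2-fold. CDKN1C, SLC22A18 and PHLDA2 sit together at −0.77 to −0.83, PEG10 (1.37) stands above adjacent SGCE (0.11), and WLS (6.47) stands far above DIRAS3.

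The cluster at 15q11.2, whose loss causes Prader-Willi and Angelman syndromes, held 3 abundant and 3 near-silent members. SNRPN, which encodes a splicing protein, had 82.0 FPKM in HOXB13-targeted cells and 133 FPKM in control cells, or 61.7% of the control level (interval 55.8 to 68.3%). SNURF, encoded at the front of the same paternally expressed transcript, had 46.1 FPKM in HOXB13-targeted cells and 48.2 FPKM in control cells. The locus of SNURF lies wholly within that of SNRPN, so the division of reads between them is uncertain, and the unequal ratios of the pair rest on that division. UBE3A, a ubiquitin ligase gene that is imprinted in neurons and active on both copies elsewhere, had 36.8 FPKM in HOXB13-targeted cells and 59.7 FPKM in control cells. Its level was 61.6% of control, with an interval of 59.4 to 64.0%, and neither it nor SNRPN passed 2-fold.

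Further along the long paternal transcript, outside the members and named after their values were seen, the noncoding RNAs IPW and PAR5 were short of 2-fold. IPW had 5.09 FPKM in HOXB13-targeted cells and 5.47 FPKM in control cells, and PAR5 had 3.63 FPKM in HOXB13-targeted cells and 2.32 FPKM in control cells. Of 7 tested neighbours within 500 kb, 1 was 2-fold higher, a short nucleolar RNA, and none was 2-fold lower. The 3 members on the other side of SNRPN were close to silent. With their loci read as 1 exon, their values came out near whole reads. The depth was itself set for the most whole reads in single-exon genes, so this is not an independent check. MKRN3, a zinc finger gene linked to the timing of puberty, had 0.0339 FPKM in HOXB13-targeted cells and 0.0332 FPKM in control cells, which is about 2 reads in each. NDN, a growth suppressor of neurons, was listed at 0 in HOXB13-targeted cells and at 0.0737 FPKM, about 3 reads, in control cells. MAGEL2, a regulator of protein ubiquitination, had 0.0208 FPKM, about 2 reads, in HOXB13-targeted cells and was listed at 0 in control cells. No difference was detectable at such numbers.

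On chromosome 7 the cluster at 7q32.2 showed a nearly silent MEST next to an abundant COPG2. MEST, a paternally expressed hydrolase-like gene active in embryonic mesoderm, had 0.427 FPKM in HOXB13-targeted cells and 0.657 FPKM in control cells, from about 21 and 34 reads. Its interval, 34.8 to 112% of control, includes an equal level. COPG2, a coat protein gene of the Golgi whose locus meets the end of MEST over 59 bases, had 27.4 FPKM in HOXB13-targeted cells and 34.1 FPKM in control cells. KLF14, an intronless transcription factor gene expressed from the maternal copy, had 0.0659 FPKM in HOXB13-targeted cells, about 2 reads, and 0.0323 FPKM in control cells, about 1 read. At 7p12, GRB10, an adaptor that dampens insulin receptor signalling, was listed at 0 in HOXB13-targeted cells and at 0.0286 FPKM in control cells, 1 to 4 reads depending on the transcript. Its neighbour DDC, the decarboxylase that makes dopamine, was also listed at 0 in HOXB13-targeted cells and had 0.0351 FPKM in control cells. Both were close to silent in either library.

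At 19q13.43 PEG3, a paternally expressed zinc finger gene, had 7.31 FPKM in HOXB13-targeted cells and 6.81 FPKM in control cells (107% of control, interval 97.1 to 119%). ZIM2, which shares its start with PEG3 and overlaps it by 30650 bases, had 0.295 FPKM in HOXB13-targeted cells and 0.301 FPKM in control cells. Around them lie many zinc finger genes. Of the 13 tested neighbours 12 had ratios below 0, and their median log2 ratio was −0.46, beside 0.09 for PEG3 and −0.05 for all genes. None of the 13 was 2-fold lower on that scale, and 5 were without the pseudocount, beside 7.32% of all genes. These 5 were low, at 1.87 to 5.16 FPKM in control cells. Of all genes between 1 and 5 FPKM, 15.0% were 2-fold lower without the pseudocount. The 1 neighbour above 0, PEG3-AS1, lies inside PEG3 and had 9.06 FPKM in HOXB13-targeted cells and 8.16 FPKM in control cells.

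None of the chromosome 20 members passed 2-fold. GNAS, which encodes the stimulatory G protein alpha subunit and several imprinted alternatives that the table merges, stood at 84.1% of its control level (interval 81.3 to 87.1%). BLCAP, a small membrane protein gene, had 12.8 FPKM in HOXB13-targeted cells and 13.28 FPKM in control cells. NNAT, a paternally expressed proteolipid gene of the developing brain that lies inside BLCAP, had 0.125 FPKM in HOXB13-targeted cells, about 2 reads, and was listed at 0 in control cells. The nearest neighbour past 2-fold was STX16, a membrane fusion gene 160.2 kb before GNAS that is known to hold an element needed for the GNAS imprint, with 16.8 FPKM in HOXB13-targeted cells and 34.9 FPKM in control cells. L3MBTL1, a chromatin compaction gene expressed from the paternal copy, had 0.981 FPKM in HOXB13-targeted cells and 1.53 FPKM in control cells.

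Genes that stand alone in their clusters completed the set. DIRAS3, a paternally expressed small GTPase and growth suppressor, had 0.387 FPKM in HOXB13-targeted cells, about 17 reads, and was listed at 0 in control cells, where a count of 0 allows up to 0.0680 FPKM. Its neighbours at 1p31.3 included genes far higher in HOXB13-targeted cells: WLS, a carrier of WNT ligands whose locus begins 47.7 kb past DIRAS3, had 275 FPKM in HOXB13-targeted cells and 2.12 FPKM in control cells. GNG12, a G protein gamma subunit gene on the other side, had 7.20 FPKM in HOXB13-targeted cells and 0.475 FPKM in control cells. The transcript GNG12-AS1 covers the whole DIRAS3 locus and was itself at 0.291 FPKM in HOXB13-targeted cells and listed at 0 in control cells, so without strand the reads of DIRAS3 and of GNG12-AS1 cannot be told apart. Of the 4 tested neighbours there, WLS and GNG12 were the 2 that were 2-fold higher. GADD45A, a DNA damage response gene, was 2-fold lower, with 24.5 FPKM in HOXB13-targeted cells and 57.0 FPKM in control cells.

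PLAGL1, a zinc finger growth suppressor at 6q24.2, had 11.05 FPKM in HOXB13-targeted cells and 12.5 FPKM in control cells. ZDBF2 at 2q33.3 had 2.82 FPKM in HOXB13-targeted cells and 4.34 FPKM in control cells, or 64.9% of control (interval 58.7 to 71.7%). Its 1 neighbour past 2-fold was NRP2, a semaphorin receptor gene 476.7 kb away, with 14.9 FPKM in HOXB13-targeted cells and 0.426 FPKM in control cells. NAP1L5, an intronless gene within HERC3, was level at 97.7% (interval 81.0 to 118%), from about 224 and 234 reads, while its host HERC3 had 1.14 FPKM in HOXB13-targeted cells and 0.599 FPKM in control cells. The drug transporter gene ABCG2, 464.6 kb away, had 36.7 FPKM in HOXB13-targeted cells and 115 FPKM in control cells, and was the 1 of 8 tested neighbours past 2-fold. TP73, a transcription factor gene at 1p36.32, had 0.889 FPKM in HOXB13-targeted cells and 0.516 FPKM in control cells, with an interval of 97.1 to 318% of control.

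Grouped by the parental copy that is usually active, the 10 tested paternally expressed members had 1 gene 2-fold higher, 1 gene 2-fold lower and a median log2 ratio of −0.12. The 6 tested members known for maternal expression had none past 2-fold and a median of −0.72, with 5 below 0 and H19 above. They include UBE3A, maternal in neurons only, and without it the median was −0.77. The 3 tested members whose imprint depends on isoform or tissue, GNAS, COPG2 and BLCAP, had a median of −0.25. Of those 6, 4 come from 11p15.5, so the groups do not stand for independent clusters. Across all 15 clusters, 98 neighbours within 500 kb were tested, and 5 were 2-fold higher and 5 were 2-fold lower in HOXB13-targeted cells, near the shares among all genes. Without the pseudocount 6 of the 98 were 2-fold higher and 13 were 2-fold lower, beside 6.18% and 7.32% of all genes above 0 in both libraries. The 13 are a larger share than among all genes, and 5 of them lie around PEG3 at 19q13.43. Several of the 13 stayed under 5 FPKM in both libraries, so the 7.32% is not a like background for them. Of all genes between 1 and 5 FPKM, 15.0% were 2-fold lower without the pseudocount. Among the higher neighbours, GNG12 and NRP2 reached 1 FPKM in HOXB13-targeted cells alone.

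A list of 25 genes that set, read or keep imprints had 19 tested. The list was chosen with earlier results of these data known, so its counts and median are a description. Of these, 3 were 2-fold higher in HOXB13-targeted cells and none was 2-fold lower, beside 4.25% and 4.51% of all genes. Their ratios were above 0 for 11 and below 0 for 8, beside 5456 above and 6514 below among all genes. The median log2 ratio of the 19 was 0.12, beside −0.05 for all genes. UHRF1, which brings the maintenance methyltransferase to newly copied DNA, had 34.4 FPKM in HOXB13-targeted cells and 9.65 FPKM in control cells. DNMT3B, a methyltransferase that adds new marks, had 11.05 FPKM in HOXB13-targeted cells and 4.29 FPKM in control cells. EHMT2, a histone H3 methyltransferase, had 18.3 FPKM in HOXB13-targeted cells and 8.29 FPKM in control cells. DNMT3L, the cofactor that helps to lay down imprints in mouse germ cells, had 1.36 FPKM in HOXB13-targeted cells and 0.249 FPKM in control cells, a log2(FPKM + 1) ratio of 0.92. DNMT3L passed the filter through HOXB13-targeted cells alone. DNMT1, the maintenance methyltransferase, and TRIM28, a corepressor that protects imprints, were short of 2-fold: DNMT1 had 34.6 FPKM in HOXB13-targeted cells and 24.6 FPKM in control cells, and TRIM28 had 145 FPKM in HOXB13-targeted cells and 123 FPKM in control cells. ZFP57, a zinc finger protein that guides TRIM28 to imprints, was listed at 0 in both libraries. ZNF445, which shares that task, had 5.94 FPKM in HOXB13-targeted cells and 6.74 FPKM in control cells. The lowest ratio, −0.60, was that of TET3, an enzyme that oxidises methylated DNA, with 2.31 FPKM in HOXB13-targeted cells and 4.01 FPKM in control cells. SETDB1, a histone H3 methyltransferase that works with TRIM28, had 11.4 FPKM in HOXB13-targeted cells and 15.7 FPKM in control cells. The insulator protein CTCF had 20.2 FPKM in HOXB13-targeted cells and 22.6 FPKM in control cells.

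**Figure D4:**
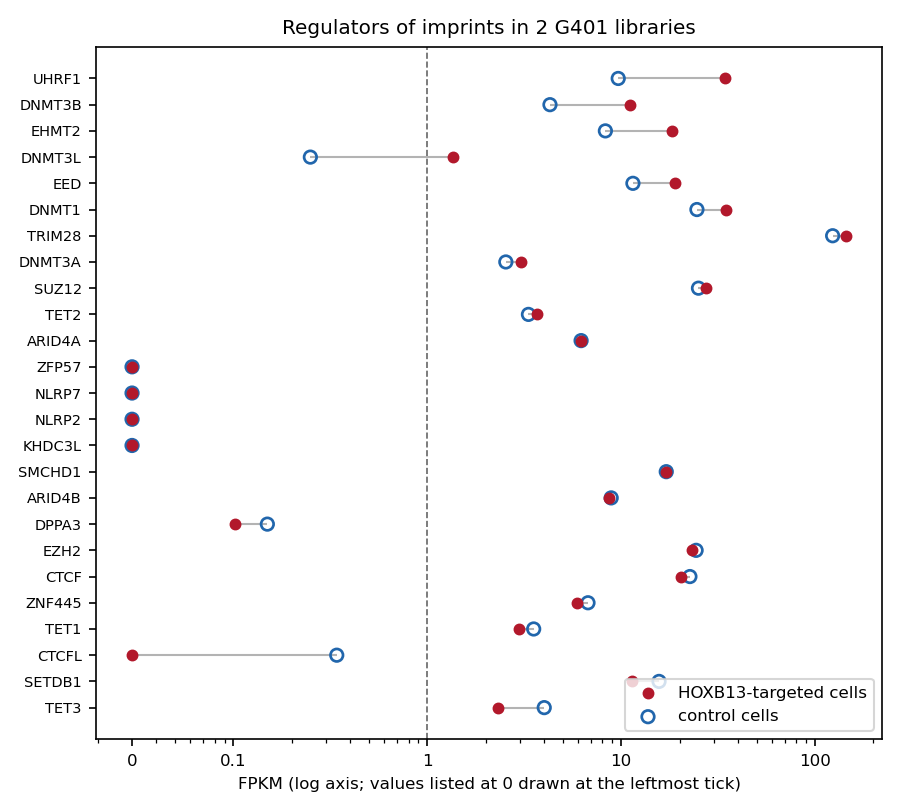
Level of 25 regulators of imprints in FPKM on a log axis, ordered by their log2(FPKM + 1) ratio. Filled red points are HOXB13-targeted cells and open blue points control cells, 1 library each, with values listed at 0 at the leftmost tick and a dashed line at 1 FPKM. UHRF1 (34.4 against 9.65 FPKM), DNMT3B and EHMT2 are 2-fold higher in HOXB13-targeted cells, and CTCF, ZNF445, SMCHD1 and the polycomb gene EZH2 lie close to equal.

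Other genes reported as imprinted, from a list of 63 of which 58 were in the tables and 24 tested, gave 2 genes 2-fold higher and 1 gene 2-fold lower, beside 4.25% and 4.51% of all genes, and the median log2 ratio was −0.14. This list too was chosen with earlier results of these data known. The neural adhesion gene NTM had 2.67 FPKM in HOXB13-targeted cells and 11.4 FPKM in control cells. DLX5, a homeobox gene of bone and limb, had 2.02 FPKM in HOXB13-targeted cells and 0.102 FPKM in control cells, and PON2 is described above with its cluster. DLX5 reached 1 FPKM in HOXB13-targeted cells alone, so the filter itself favours a difference in it. The next in size were DGCR6, at 4.33 FPKM in HOXB13-targeted cells and 7.10 FPKM in control cells, INPP5F, at 3.82 and 2.45 FPKM in the same order of libraries, and DGCR6L, at 16.1 and 22.6 FPKM in that order. DGCR6 and DGCR6L are closely similar copies, so the split of reads between them is uncertain.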

How the data were processed

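RNA from 2 libraries of G401 cells was compared, 1 per group, and each group is the one its title gives. RNA was depleted of ribosomal RNA and libraries were made with an Ion template kit, per the labels' protocols. The submitters' processing notes name TopHat, Bowtie, Cufflinks and hg19, and versions, settings and strand mode are not given in the sources used here. The authors deposited 1 table of FPKM per library, with 25001 rows of symbol and locus and no counts. Values marked as failed (3 rows in HOXB13-targeted cells and 2 in control cells) were left out, rows sharing a symbol were summed, and the deposited FPKM were not rescaled. Starts are counted from 1.

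The members and lists were chosen with earlier results of these data known. No test was possible with 1 library per group, and the call was a ratio of 2-fold on the log2(FPKM + 1) scale, if it reached 1 FPKM in either library. The genes named are HOXB13, SMARCB1, all members, members of the imprint regulator list, up to 6 genes with the largest absolute ratio of the list of other imprinted genes, and up to 2 neighbours past 2-fold per cluster (not all regulators are described). GNG12-AS1, HERC3 and PEG3-AS1, which overlap members, and GADD45A, the other neighbour past 2-fold at 1p31.3, were added after the values were seen.

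Relative depth came from 2464 genes under 0.3 FPKM in both libraries: 309 shared the ratio 1.0209, taken as 1 read over 1 read, and 56.5% gave ratios of whole numbers up to 12 within a relative tolerance of 0.0002. Absolute depth is approximate. It came from 33 single-exon genes, of which 22 gave whole reads within 0.05 when 204 bases were subtracted from the length, a setting chosen for the most whole values. Transcript lengths came from GENCODE 29, which is on another build, and were used only as lengths, except that members with 1 exon used the width of their locus. Exact 95% binomial intervals and the limit of 3 reads for a count of 0 cover counting error only. The procedure was checked on simulated data. Software was scipy 1.17.1, pandas 2.3.3, numpy 2.4.6, matplotlib 3.10.9 and Python 3.11.15. Alternatives were the pseudocount, the filter, the scaling and the handling of repeated symbols.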

Additional observations from a re-analysis of the deposited data

How the results depend on the processing

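No paired analysis was possible because each group had 1 library, and for the same reason no replicate could be left out. PEG10 stayed 2-fold higher in all 8 alternatives and DLK1 2-fold lower in all 7 that kept it. Members 2-fold higher numbered 2 with a pseudocount of 0.1 FPKM and 2 with none, against 1. Members 2-fold lower numbered 3 with a pseudocount of 0.1 FPKM, 4 with none and 0 at 5 FPKM or more, which leaves DLK1 out, against 1. All genes 2-fold lower numbered 849 with a pseudocount of 0.1 FPKM and 874 with none, against 540. Of the 19 tested members 15 kept the sign of their ratio in every alternative run. The exceptions, with ratios within 0.07 of 0 in the values as reported, were PPP1R9A, BLCAP, SNURF and NAP1L5.

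The median log2 ratio of the tested members, −0.25, was −0.045 with no filter, −0.062 at 5 FPKM or more, −0.27 with equal totals, −0.18 with equal upper quartiles and −0.20 when centred on the median of all genes. The median at 11p15.5, −0.78, was −1.02 with a pseudocount of 0.1 FPKM, −1.06 with none, −0.55 with no filter, −0.79 with equal totals, −0.73 with equal upper quartiles and −0.72 when centred. No member at 11p15.5 reached 5 FPKM. At 7q21.3 the median, 0.11, was 0.12 with either pseudocount setting, 0.74 at 5 FPKM or more, where PPP1R9A is left out, 0.087 with equal totals, 0.17 with equal upper quartiles and 0.16 when centred. At 15q11.2 the median, −0.68, was −0.70 with either pseudocount setting, −0.083 with no filter, −0.70 with equal totals, −0.62 with equal upper quartiles and −0.63 when centred. With no filter, members under 1 FPKM enter the medians over all members, at 11p15.5 (KCNQ1 and KCNQ1OT1) and at 15q11.2 (MKRN3, MAGEL2 and NDN), while 7q21.3 had none.

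Of all genes past 2-fold, 48.5% were higher in HOXB13-targeted cells, and 46.5% to 55.0% under the scalings. Depth limits the low members: under about 0.1 FPKM a level stands for a few reads. With 1 library per group, culture, clone and library differences cannot be told apart from the guide.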
